A study of Homo sapiens with 7 samples.

Results

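The genes described here are MAX and 9 genes of its network, namely MXD1, MXD3, MXD4, MXI1, MNT, MGA, MLX, MLXIP and MLXIPL. Their loci were examined for binding of the transcription factor Myc in HT29, an established human colon adenocarcinoma line. A site belonged to a locus when its summit, the base of highest signal in a peak, lay inside the RefSeq span of the gene or within 20 kb of it. All 10 loci had at least 1 such site, against 79.7% of protein-coding genes, and together they held 58 of the 47016 peaks that the deposited list gives for the nuclear chromosomes. Binding was measured by CUT&RUN, in which an antibody directs a nuclease to its target in permeable cells and the released DNA is sequenced. The design held 3 Myc libraries, 3 IgG libraries and 1 input, all from cells given oleic acid for 6 h without serum, and the labels name 1 antibody for Myc and IgG libraries alike. Cells kept without oleic acid were not analysed here, and the list gives 1 value per peak over the Myc libraries. No spread between libraries can therefore be given, and no test between conditions was possible. Expression was not measured, so the colon identity of the line was not checked.

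Myc binds DNA as a pair with MAX, preferably at the E-box CACGTG. MXD1, MXD3, MXD4, MXI1 and MNT also pair with MAX and, bound at the same kind of element, recruit SIN3 corepressors and act against Myc. MGA, a large protein with a T-box as well as the pairing domain, brings MAX into a Polycomb complex. MLX resembles MAX and pairs with MLXIP (MondoA) and MLXIPL (ChREBP), which respond to glucose-derived metabolites, and with some of the MXD proteins. Positions below are in GRCh38, counted from 1, and distances are given along the direction of transcription.

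More than 1 start is listed for MAX, MXI1 and MGA, and some of the internal sites lay at such starts. Use of these starts in the cells was not measured. A RefSeq-derived table of GRCh38.p14 listed 15 starts for the 10 genes, and each gene had at least 1. The 250 bases before the starts of MXI1 are shown because each start lay under a peak of its own. For MGA only the window before the second start is shown, a start far inside the span and by the internal site. That window lay outside the peak interval, which covered the third start. The 250 bases before the starts of MXD4, MNT and MLX are shown because they hold the canonical E-box. On either strand, capitals mark CANNTG, of which CACGTG is the canonical form and CATGTG is another. They also mark the related element CACGCG, as well as the variant CACGAG and the further variant CATGCG.
MXI1, the first start, chr10:110207355-110207604, plus strand: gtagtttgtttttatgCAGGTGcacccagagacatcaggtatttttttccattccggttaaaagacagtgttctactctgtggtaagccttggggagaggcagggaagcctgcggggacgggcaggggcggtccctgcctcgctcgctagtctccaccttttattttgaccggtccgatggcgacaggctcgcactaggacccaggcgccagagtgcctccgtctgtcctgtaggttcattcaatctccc
MXI1, the second start, chr10:110209981-110210230, plus strand: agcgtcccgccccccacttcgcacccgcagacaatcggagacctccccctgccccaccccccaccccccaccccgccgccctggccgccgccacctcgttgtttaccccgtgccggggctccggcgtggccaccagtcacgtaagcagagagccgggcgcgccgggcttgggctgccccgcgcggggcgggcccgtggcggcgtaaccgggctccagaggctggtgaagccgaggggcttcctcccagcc
MXI1, the third start, chr10:110225746-110225995, plus strand: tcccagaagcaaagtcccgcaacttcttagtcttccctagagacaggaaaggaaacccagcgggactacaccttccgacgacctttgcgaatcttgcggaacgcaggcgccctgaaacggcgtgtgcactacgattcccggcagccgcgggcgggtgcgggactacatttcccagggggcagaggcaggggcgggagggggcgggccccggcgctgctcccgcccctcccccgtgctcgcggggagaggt
MGA, the second start, chr15:41660155-41660404, plus strand: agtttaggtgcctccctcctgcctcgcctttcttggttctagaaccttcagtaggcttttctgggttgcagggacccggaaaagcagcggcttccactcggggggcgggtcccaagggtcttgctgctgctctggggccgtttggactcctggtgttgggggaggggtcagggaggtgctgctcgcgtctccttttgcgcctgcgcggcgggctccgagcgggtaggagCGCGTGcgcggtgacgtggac
MXD4 start, chr4:2262110-2262359, minus strand: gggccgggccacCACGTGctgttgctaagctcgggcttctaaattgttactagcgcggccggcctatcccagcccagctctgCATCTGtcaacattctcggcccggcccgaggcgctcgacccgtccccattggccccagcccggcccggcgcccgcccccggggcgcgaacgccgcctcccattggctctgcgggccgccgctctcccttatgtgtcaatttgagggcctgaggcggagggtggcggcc
MNT start, chr17:2401061-2401310, minus strand: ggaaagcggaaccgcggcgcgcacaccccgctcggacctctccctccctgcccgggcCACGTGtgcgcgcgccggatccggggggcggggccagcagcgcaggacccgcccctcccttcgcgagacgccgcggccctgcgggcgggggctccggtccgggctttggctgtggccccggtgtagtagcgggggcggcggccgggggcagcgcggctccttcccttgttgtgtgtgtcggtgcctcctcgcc
MLX start, chr17:42566850-42567099, plus strand: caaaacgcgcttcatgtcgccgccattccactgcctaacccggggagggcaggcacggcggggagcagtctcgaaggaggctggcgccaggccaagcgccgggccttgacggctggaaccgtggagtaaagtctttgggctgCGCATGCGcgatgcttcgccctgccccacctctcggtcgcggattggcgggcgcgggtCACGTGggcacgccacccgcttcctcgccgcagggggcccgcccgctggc

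CACGTG stood 238 bases before the MXD4 start, 193 before the MNT start and 50 before the MLX start, counted to its first base. It was found in 3 of the 15 windows, against 6.34% of the 35116 windows of the same length in the table. CACGCG stood, on the opposite strand, 21 bases before the second start of MGA, and CATGCG in overlapping copies 108 and 106 bases before the MLX start. CATGCG also stood 31 bases before the third start of MGA, inside the interval of the internal peak. No CACGTG was in the window before the second start of MXI1 or that before the third. These windows held none of the other forms either, although CACGCG stood 8 bases past the third start. The summits of the internal MXI1 peaks lay 882 and 262 bp past these starts, outside the windows, and the sequence there was not searched. CANNTG in any form was in 8 of the 15 windows, against 61.8% of all windows. CATGTG was in none of the 15, against 9.42% of all windows, and CACGAG in none, against 5.58%. CACGCG was in 9.72% of all windows and CATGCG in 5.94%. Paired canonical E-boxes with a gap of 5 bases, the arrangement of glucose-response elements, were in none of the 15 and in 1 of the 35116. Pairs of E-boxes of any form with that gap were also in none, against 0.541% of all windows. The AP-1 element TGANTCA was in the MXD3 window, 79 bases before the start, against 6.57% of all windows. A match is a description of letters and not a bound site.

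Of the 58 sites, 26 were internal, meaning inside the span and over 1 kb from both annotated ends. A further 10 lay within 1 kb of an end and 22 in the flanks. Of the 10 genes, 9 had an end site, MGA being the exception, against 56.4% of protein-coding genes. Internal sites were found at 7 of the 10 genes, against 36.3% of 20037 protein-coding genes, and none at MXD3, MXD4 and MLX, whose spans are 7.25, 14.7 and 6.10 kb. With an end limit of 500 bp it was 9 of 10, MXD3 and MXD4 having 1 each, against 40.2% of all genes. At a −log10 q of at least 10 it was 5 of 10, without MXD1 and MLXIPL, against 21.2%. MLXIP had 8 internal sites, MLXIPL 6, MNT 5, MAX 3, MXI1 2, and MXD1 and MGA 1 each. Among genes over 2 kb, which can hold an internal site, the share was 38.8%. Thus 3 of the 10 genes had at least 5, against 5.57% of protein-coding genes. At a −log10 q of at least 5 they were 2, as MNT kept 3 sites, against 3.11%, and at 10 only MLXIP, with 5, against 1.32%. Longer genes hold more sites. Among genes up to 10 kb, 11.1% had an internal site (MLX and MXD3 had none). At 10 to 20 kb it was 29.6% (MNT had 5, MXD4 none), and at 20 to 50 kb 40.1% (MXD1 had 1). At 50 to 100 kb, the class of MAX, MXI1, MLXIP and MLXIPL, it was 53.3%, and over 100 kb, that of MGA, 65.9%. Fewer sites than MXD1 were held by 59.9% of its class, and fewer than MXI1 by 69.6%. The counts of MAX, MNT, MGA, MLXIP and MLXIPL are set beside their length classes below.

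**Figure D1:**
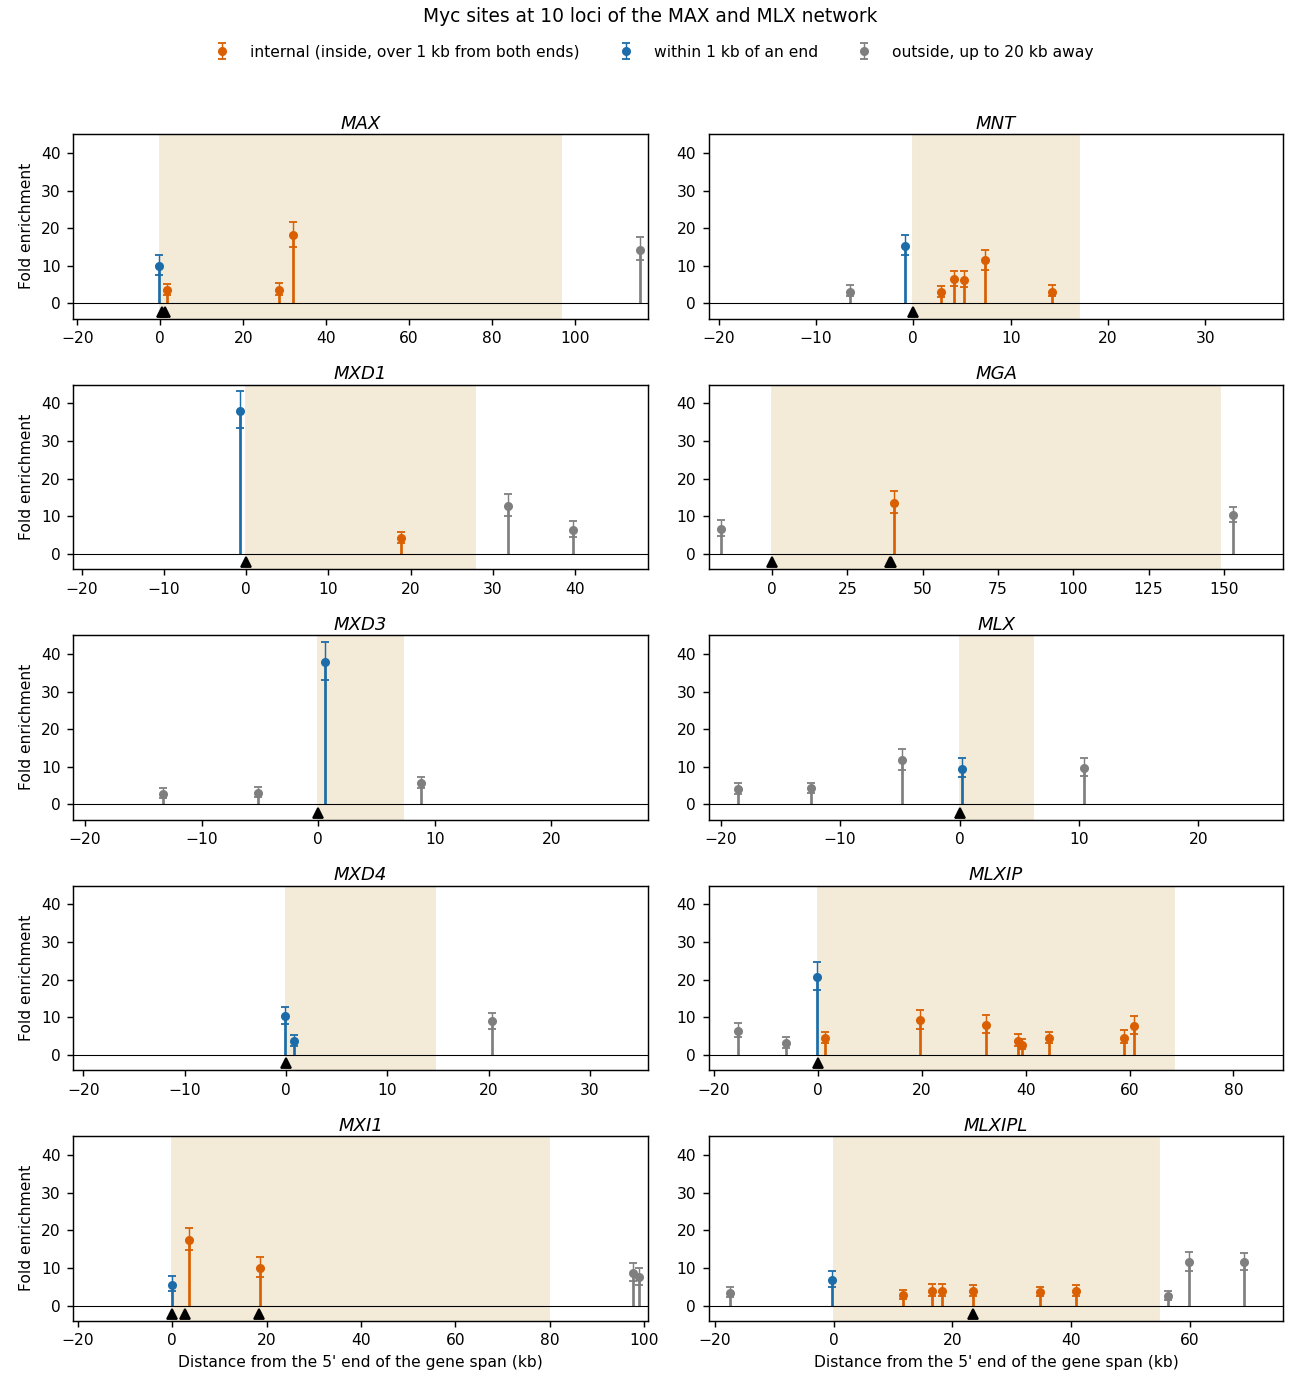
Each panel shows the Myc sites of 1 locus, with the distance of the summit from the 5' end of the gene span in kb on the horizontal axis and the fold enrichment on the vertical axis. Shading marks the span, triangles the annotated starts, and bars the exact Poisson 95% intervals. Sites inside MLXIP and MLXIPL are spread along the span, whereas those of MXI1 stand at triangles.

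The strength of a site is given as the authors' fold enrichment, the ratio of the Myc pileup plus 1 to the control level plus 1 at the summit. The pileup, a count of the fragments lying over that base, was recovered from the deposited values, and the interval after each fold is its exact Poisson 95% interval with the control level held fixed. These intervals cover counting error only. The median fold of the 26 internal sites was 4.29, over a range of 2.74 to 18.1, and that of the 10 end sites was 10.1, over a range of 3.61 to 38.1. The 22 flanking sites had a median of 6.60. For comparison, the 19852 internal peaks of all protein-coding genes had a median of 3.81. Pileups at internal sites ranged from 17 to 137 fragments with a median of 31, so the weakest sites rest on few fragments.

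Internal sites had a median width of 820 bp, from 234 to 3884 bp, and the internal peaks of all protein-coding genes 621 bp. End sites had a median width of 1117 bp, up to 5240 bp at MXD1. Of the 26 internal sites, 8 were wider than 1000 bp (30.8%), against 26.9% of all internal peaks. The 3 internal sites over 2000 bp (11.5%, against 6.91% of all internal peaks) were those of MXI1, with 3884 and 2341 bp, and that of MGA, with 2054 bp. All 3 intervals covered an annotated start, and the share of all internal peaks of such width that do so was not determined.

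**Figure D2:**
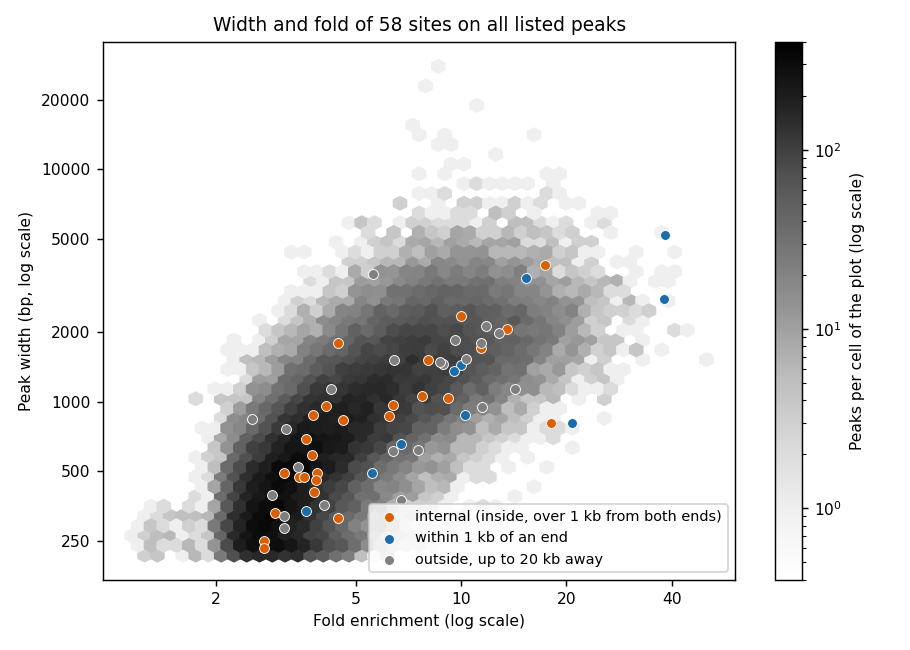
Width in bp against fold enrichment, on log scales, for the 58 sites (coloured by position) over the density of all listed peaks (grey). The 810 bp internal site of MAX, the 808 bp end site of MLXIP and the 377 bp flanking site of MGA lie at the narrow edge of the grey cloud for their fold.

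At MAX (chromosome 14, 65006101 to 65102695, minus strand), the strongest of 5 sites was internal. Its summit at 65070754 lay 31941 bp inside the 5' end of the span and 30930 bp from the nearest listed start. It had a fold of 18.1 (15 to 21.7) (114 fragments at a control level of 5.36), higher than 98.8% of all peaks. The peak was 810 bp wide, and only 1.31% of the 535 peaks with a fold within 10% of this one were narrower, with a median width of 2115 bp. The end site by the first start had 10.0 (7.68 to 12.8). The internal fold was thus 1.81 times the end fold (exact conditional 95% interval 1.32 to 2.53).

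The other internal sites of MAX were weak. One at 65073953, 3199 bp from the strongest, had a fold of 3.61 (2.30 to 5.43). One at 65101215 lay 469 bp past the second start with 3.45 (2.17 to 5.23), and its interval ended 50 bp short of that start. The only flanking site, at 64986947 with 14.3 (11.5 to 17.6), lay 52 bp past the start of FNTB, which encodes a farnesyltransferase subunit. Among the 2913 genes of 50 to 100 kb, 80.5% had fewer than 3 internal sites.

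MXD1 and MXD3, which encode antagonists of Myc, carried their signal at the start. The MXD1 peak (chromosome 2, span 69915109 to 69942945, plus strand) was 5240 bp wide and covered the start, with a summit 704 bp before it and a fold of 38.1. Its only internal site, at 69933907, had 4.12 (2.80 to 5.86) from a pileup of 29, which is 0.108 times the end fold (0.0688 to 0.155). That summit also lay within the annotated span of ASPRV1, a protease gene. Stronger sites followed beyond the 3' end, with 12.8 (10.1 to 16.0) at 69946949, 4004 bp from the gene, and 6.41 (4.61 to 8.71) at 69954916. Both lay within the span of ASPRV1 and away from any listed start.

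MXD3 (chromosome 5, 177305499 to 177312752, minus strand) had no internal site. Its peak was 2761 bp wide, with a summit 589 bp past the start and a fold of 37.9, close to that of MXD1. Flanking sites were far weaker, with 3.16 (2.11 to 4.58) and 2.89 (1.80 to 4.43) at 5135 and 13323 bp before the start. A 3549 bp peak with a fold of 5.61 (4.26 to 7.25) lay on the other side, 106 bp past the start of PRELID1, a gene for a mitochondrial lipid transfer protein. It was wider than 99.0% of peaks of like fold.

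MXD4 (chromosome 4, 2247432 to 2262109, minus strand) had sites around its start and none deeper in the gene. The stronger summit lay 100 bp before the start, within the printed window that holds CACGTG, and had a fold of 10.3 (8.18 to 12.8). A narrow peak of 339 bp stood 769 bp past the start, with 3.61 (2.30 to 5.43). The start itself lay in the gap between them, 32 bp outside the interval of the stronger peak. The remaining site, with 8.91 (6.96 to 11.2), lay 296 bp past the start of POLN, a DNA polymerase gene.

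At MXI1 (chromosome 10, 110207605 to 110287365, plus strand), each of the 3 listed starts lay under a separate peak, and the outermost was the weakest. The peak at the first start had a summit 164 bp before it and a fold of 5.58 (3.89 to 7.77), with a width of 494 bp. At the second start, 2626 bp further in, the summit at 110211113 lay 882 bp past the start, with 17.4 (14.6 to 20.6) over 3884 bp. At the third, 18391 bp from the first, the summit at 110226258 lay 262 bp past the start, with 10.0 (7.68 to 12.8) over 2341 bp. The intervals of the first and the third overlapped slightly, and that of the second lay above both. The strongest internal fold was 3.12 times the end fold (2.17 to 4.82). A measure limited to the ends of the span thus takes in only the weakest of these 3 peaks. Flanking sites of 8.70 (6.54 to 11.4) and 7.55 (5.55 to 10.0) lay 338 and 1602 bp before the start of SMNDC1, a splicing factor gene.

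MNT (chromosome 17, 2384073 to 2401060, minus strand) held 5 internal sites in 17.0 kb, the densest internal binding of the 10 genes at 3.34 sites per 10 kb. Of the 3329 genes of 10 to 20 kb, 99.5% had fewer. The strongest lay 7335 bp past the start at 2393725, with a fold of 11.4 (9 to 14.3) over 1704 bp. Those 5181 and 4146 bp past the start had 6.24 (4.44 to 8.53) and 6.40 (4.58 to 8.72) and lay 1035 bp apart. The outer pair, 2879 and 14252 bp past the start, had 2.95 (1.79 to 4.63) and 3.12 (1.91 to 4.83). None of the 5 was within 1 kb of a listed start.

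The end peak of MNT was 3394 bp wide, with a summit 858 bp before the start and a fold of 15.4 (12.8 to 18.3), and its interval covered the start and thus reached across the printed window with CACGTG. The strongest internal fold was 0.744 times that of the end (0.547 to 0.994).

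MGA (chromosome 15, 41621224 to 41769940, plus strand) had no peak at either end of its span, and the first of its 3 listed starts was 16793 bp from the nearest interval. Its single internal site, at 41661795, lay 40571 bp inside the span, 1048 bp past the third start and 1390 bp past the second. It had a fold of 13.5 (10.8 to 16.7) over 2054 bp, higher than 96.0% of all peaks. The interval covered the third start and began 26 bp past the second, whose upstream window with CACGCG is printed above. Flanking sites had 6.76 (4.90 to 9.11), 17030 bp before the gene, and 10.3 (8.53 to 12.4), 233 bp before the start of MAPKBP1. Of the 3356 genes over 100 kb, 34.1% had no internal site, and MGA had 1.

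MLX (chromosome 17, 42567100 to 42573203, plus strand) had 1 site of its own, 226 bp past the start, with a fold of 9.52 (7.25 to 12.3) over 1358 bp. Its summit lay downstream of the printed window with CACGTG, and its interval covered both the window and the start. Of the 4 flanking sites, 3 lay at starts of neighbours. They had 11.8 (9.23 to 14.8) at COASY, a coenzyme A synthesis gene, 9.63 (7.46 to 12.2) at PSMC3IP and 4.25 (3.13 to 5.66) at the antisense gene HSD17B1-AS1. Of the 5 sites of the locus, 4 were thus in the flanks, and all 4 were closer to another protein-coding gene than to MLX.

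MLXIP (chromosome 12, 122078756 to 122147344, plus strand) had the most internal sites of the 10 genes. The 8 sites lay from 1328 to 60838 bp past its only listed start, and 97.2% of genes of 50 to 100 kb had fewer. The strongest were at 122098334 with 9.19 (6.96 to 11.9), at 122111206 with 8.04 (5.97 to 10.6) and at 122139594 with 7.71 (5.69 to 10.2), whose intervals overlap. The other 5 had folds of 2.74 to 4.60 and pileups of 17 to 40. They included a pair 751 bp apart at 122117259 and 122118010. No internal site lay within 1 kb of any listed start.

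The end site of MLXIP, 231 bp before the start, had a fold of 20.8 (17.4 to 24.6), and the strongest internal fold was 0.442 times that (0.314 to 0.604). This end peak was 808 bp wide, and 0.990% of the 303 peaks of like fold were narrower. The peak at 122080084, just past the start, had a fold of 4.46 (3.22 to 6.04) but a width of 1789 bp, wider than 96.0% of peaks of like fold.

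MLXIPL (chromosome 7, 73593202 to 73647907, minus strand) also held many internal sites, and all 6 were weak. Their folds ran from 2.75 (1.71 to 4.21) to 3.89 (2.55 to 5.71), and the intervals of all 6 overlapped. Widths were 234 to 588 bp and pileups 19 to 33. Among genes of 50 to 100 kb, 94.4% had fewer. The only start listed in the table lay 23385 bp inside the span, at 73624522. The site at that start, 146 bp past it, had 3.75 (2.48 to 5.47), within the range of the others.

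The site at the 5' end of the MLXIPL span lay 23590 bp before the listed start and had 6.73 (4.85 to 9.10). The strongest internal fold was 0.578 times this (0.328 to 0.967). The strongest sites of the locus lay outside the gene. One at 73587990, 5212 bp beyond the 3' end and away from listed starts, had 11.5 (9.09 to 14.3), and one 211 bp before the start of TBL2 had 11.4 (9.36 to 13.8). In contrast to MLXIP, neither the start nor the span of MLXIPL held a site with a fold of 5 or more, apart from that at the outer end.

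**Figure D3:**
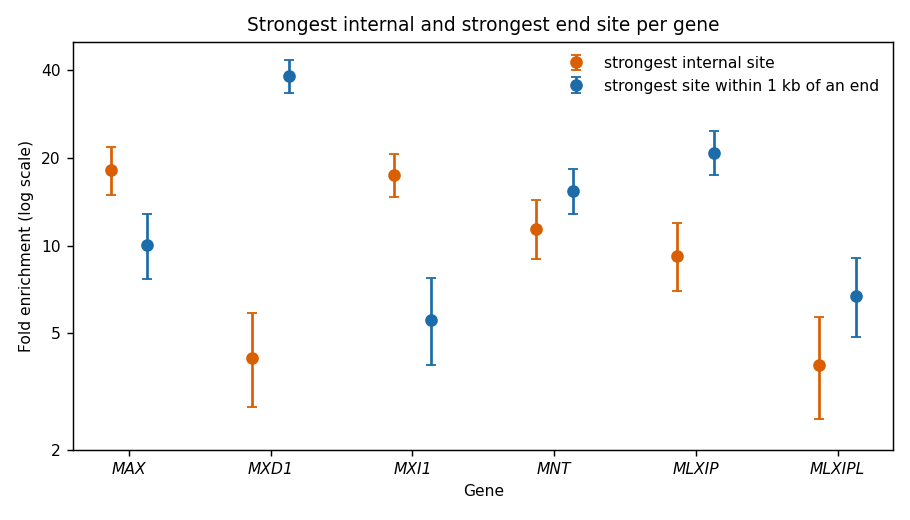
Fold enrichment on a log scale of the strongest internal site (orange) and the strongest site within 1 kb of an end (blue), for the 6 genes that had both, with exact Poisson 95% intervals. The internal site is higher at MAX and MXI1 and lower at MXD1, MNT, MLXIP and MLXIPL.

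Over the 10 loci, 13 sites lay within 1 kb of a start of the gene itself, 10 within 1 kb of a start of another gene and 35 near no listed start. Together 23 (39.7%) lay near a start, against 23.5% of all 47016 peaks, where every window here was drawn around a gene. Median folds were 10.0, 9.27 and 4.12. Of the internal sites, 4 (15.4%) lay within 1 kb of a listed start, against 11.8% of all internal peaks. They were those of MXI1, the site by the second start of MAX and the site at the MLXIPL start. The MGA site missed this limit by its summit, although its interval covered a start. Peak intervals covered 11 of the 15 starts, against 39.8% of the 35116 starts in the table. The uncovered ones were the MXD4 start, the second start of MAX and the first and second of MGA.

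**Figure D4:**
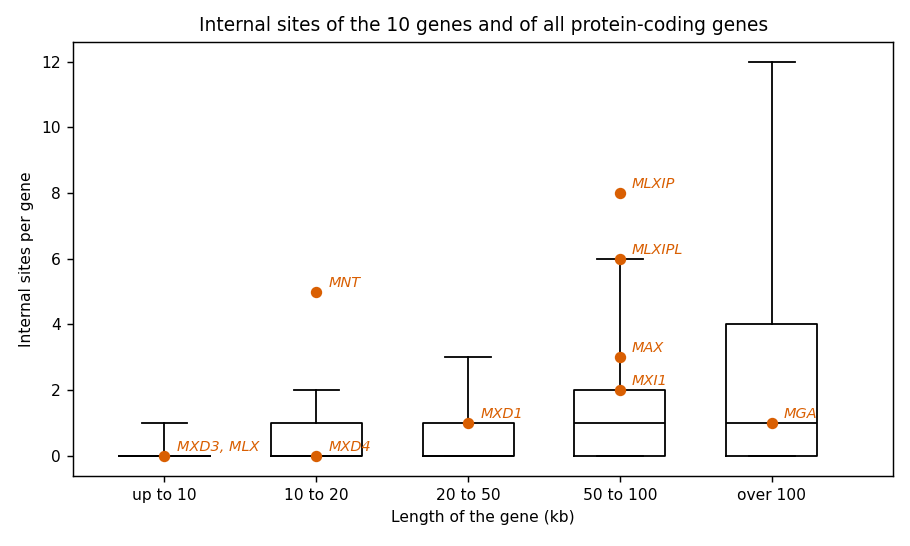
Number of internal sites per gene by gene length in kb. Boxes give the quartiles and median of all protein-coding genes, whiskers the 5th and 95th percentiles, and orange points the 10 genes. MNT and MLXIP lie above the upper whisker of their class and MLXIPL on it.

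Counted over span and flanks, MNT had 1.23 sites per 10 kb, MLXIPL 1.16, MLX 1.08, MLXIP 1.01 and MXD3 0.846. MXD1 had 0.590, MXD4 0.549, MXI1 0.417, MAX 0.366 and MGA 0.159. The median protein-coding gene had 0.260, and 9 of the 10 genes were above it, MGA being the exception, against 50% of all genes by construction. Of the 58 sites, 16 were closer to another protein-coding gene. At the edge of the 20 kb window, sites just inside lay 19157 bp from MXI1 and 19154 bp from MAX, with folds of 7.55 and 14.3. The nearest just outside lay 20934 bp from MXD1 and 21330 bp from MGA, with 4.29 and 3.90.

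Among 23 other genes of the network, in 4 lists, 9 had an internal site, against 36.3% of all protein-coding genes. Their spans ran from 4.145 kb at TXNIP to 186 kb at NCOR1, and the share is not matched for length. For these 23 genes the distance from listed starts was not determined, so an internal site can lie at a start inside the span. Of the 3 MYC paralogs, MYCL had 1 internal site with 3.12 (1.91 to 4.83), and MYC, with 9 sites in its window, had none. MYCN had no site within 20 kb. Of 5 corepressor genes, 3 had one. At HDAC1, a histone deacetylase gene, the strongest of 2 had 18.1 (14.9 to 21.8), against 7.13 at the end, and SIN3A, the scaffold that MXD proteins recruit, had 16.2 (13.6 to 19.1) inside and no end site. NCOR1, another corepressor gene, had 2.79 (1.66 to 4.43) inside, against 10.2 at the end.

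Of 10 genes of the MGA complex, 2 had an internal site, against 36.3% of all protein-coding genes. They were TFDP1 with 7.93 (5.89 to 10.5) and WDR5 with 3.27 (2.06 to 4.96). RYBP had no site within 20 kb. Of 5 genes known to respond to glucose through the MLX branch, 3 had an internal site, against the same 36.3%. PFKFB3, a regulator of glycolysis, had 7 internal sites with a highest fold of 8.37 (6.25 to 11.0), and the hexokinase gene HK2 had 5 with up to 13.3 (10.6 to 16.5) and no end site. The span of PFKFB3 is 182 kb, and genes over 100 kb had a mean of 3.02 internal sites. That of HK2 is 59.2 kb, and genes of 50 to 100 kb had a mean of 1.43. TXNIP, whose product restrains glucose uptake, had 1 with 2.95 (1.79 to 4.63).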

How the data were processed

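The submitters' processing notes name hg38 as the build, BWA 0.7.15 and, for peaks, MACS2 2.1.2. Which control was used, how replicates were pooled and whether duplicates were removed is not stated there. The deposited peak list gives, per peak, a fold enrichment (a ratio), the −log10 of p and of q, a display score (not used) and the summit. Its lowest −log10 q was 1.30. Peak names carry Myc, so it was read as 1 list over the Myc libraries.

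The fold and −log10 p were solved for a whole-number pileup, which gave back the listed −log10 p within 0.001 for all 47016 nuclear peaks, and the method was tested on simulated data. The total depth of the libraries is unknown. At 23 of the 58 sites, the control level stood at its lowest value, 5.09, so the folds of these sites differ only by pileup. The share of all 47016 peaks at that level was not determined. Ratios of 2 folds carry exact conditional (Clopper-Pearson) intervals with control levels held fixed. The strongest site of each kind was taken for a ratio, and its interval does not allow for that choice. Gene spans came from RefSeq, assembly GRCh38.p14, whose chromosomes match hg38, and starts, strands and promoter sequences from a RefSeq table of the same build. Motifs were searched only before starts, since no genome was used here. All 10 genes are named with their sites, and the network lists by number of internal sites. Genes and lists were chosen with earlier results of these data known, so no test was made. Python 3.11.15, pandas 2.3.3 and SciPy 1.17.1 were used.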

Additional observations from a re-analysis of the deposited data

How the results depend on the processing

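The count of 58 sites depended on the window and threshold: it was 89 with a window of 50 kb, 29 inside the spans only and 36 at a −log10 q of at least 10. It was 42 with a window of 5 kb and 42 without sites closer to another coding gene. The 26 internal sites became 12 at a −log10 q of at least 10, and were 21 at 5, 28 and 24 with end limits of 500 bp and 2 kb, and 22 without sites near a listed start, an alternative chosen after seeing the data. Among genes over 2 kb, 38.8% had an internal site. No ratio of internal to end fold changed direction with pileups or other end limits; with pileups the MLXIPL interval reached 1.02. With an end limit of 500 bp, MXD1 and MNT had no end site and gave no value. With windows of 300 bases, which add 50 after each start, CACGTG was again in 3 windows, and CACGCG was in 3 (MGA, MXD3 and MXI1), against 1 at 250. Of all windows of 300 bases, 7.26% held CACGTG and 11.4% CACGCG. No paired analysis was possible because the list holds no value per library, and no replicate could be left out for the same reason.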
